A study of Rattus norvegicus with 6 samples.

Results

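Histone genes were examined in rat chondrosarcoma (RCS) cells and in rat rib tissue. The genes were taken by their symbols, read without regard to capitals, which had to begin with Hist1h to Hist4h, H2af, H1f or H3f. The rule found 65 of the 27217 gene entries in the table. Of these, 51 carried symbols of the histone clusters and are called replication-dependent here, and 14 carried symbols of histone variants. The rule reads gene names only.

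The RNA-seq data comprised 3 libraries of the RCS line, chondrocyte-like cells grown from a rat tumour of cartilage, and 3 of rib tissue of neonatal rats. The study concerns the SOX transcription factors of cartilage cells, and the labels give no genotype, strain, treatment or age beyond "neonatal" for either group. RCS cells are 1 line, and no cultures or animals are named behind the replicates, so each p-value measures the spread between these libraries, which may be technical. The libraries held an estimated 6000000 to 8520000 gene reads for RCS cells and 5320000 to 7490000 for rib tissue.

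Histones H2A, H2B, H3 and H4 form the protein core around which DNA is wrapped in a nucleosome, and linker histone H1 binds where DNA enters and leaves it. Replication-dependent histone genes lie in clusters and are transcribed mainly in S phase, when new DNA has to be packaged, and their mRNAs end in a stem-loop in place of a poly(A) tail. Variant histone genes lie outside the clusters, are mostly made throughout the cell cycle as polyadenylated mRNAs, and are placed into chromatin by chaperones of their own. The labels do not say whether polyadenylated RNA was selected before sequencing, and how far such a step shaped the replication-dependent values was not tested.

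Values were taken as normalized counts, meaning reads on a gene divided by 1 factor per library, without division by the length of the gene. Levels are therefore compared between libraries and never between genes. Differences are RCS cells minus rib tissue on the log2(normalized count + 1) scale with their SE from limma, and they understate the change of low genes. A gene counted as higher or lower where its adjusted p (Benjamini-Hochberg, over the 16809 genes tested) was under 0.05, and is otherwise described as not called. Folds are left out where a group averaged under 10 normalized counts.

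The rib libraries held other cell types that the RCS libraries hardly held. Muscle markers were lower in RCS cells in 6 of 6 tested genes, against 43.6% of all genes tested. Markers of fibroblasts and bone were lower in 7 of 7, and blood markers in 7 of 7. The muscle markers summed to 109 to 137 normalized counts in RCS libraries and to 15728 to 30207 in rib libraries. The fibroblast and bone markers summed to 115 to 140 in RCS libraries and to 41548 to 84774 in rib libraries, and the blood markers to 57 to 71 in RCS libraries and to 1232 to 2877 in rib libraries. Myog, Hba-a2 and Ptprc were listed at 0 in every RCS library. Of the chondrocyte markers, 2 of 8 were higher and 2 of 8 lower in RCS cells, against 32.9% and 43.6% of all genes. The collagen genes Col2a1 and Col11a2 were lower, at -2.62 and -1.43, and the matrix genes Matn1 and Comp were higher by 1.70 and 0.49. Acan, the main cartilage proteoglycan, stood at 18527, 15042 and 12433 normalized counts in RCS libraries and at 11996, 10996 and 15198 in rib libraries. The part of these other cells in the histone differences was not tested. In such bulk samples, fewer cells that make a histone mRNA and less of that mRNA per cell cannot be told apart.

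Replication-dependent histone genes were mostly higher in RCS cells. Of the 51 entries, 47 had enough signal to be tested and 4 entries of Hist2h4a were listed at 0 in all 6 libraries. By limma with Benjamini-Hochberg adjustment, 36 were higher, 6 were lower and 5 were not called, against 32.9% of all genes tested that were called higher and 43.6% that were called lower, or 76.5% in either direction. At least a 2-fold difference was found in 22 of the higher entries and in all 6 lower ones, against 14.1% and 33.1% of all genes. The median difference was 0.96, against -0.15 over all genes tested, and the entries ranged from -4.76 to 2.85. Libraries of the 2 groups did not overlap in 40 of the 47 tested entries, against 13268 of the 16809 genes tested. A lack of overlap was thus common over all genes.

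Summed over the 51 entries, replication-dependent histones gave 14553, 14287 and 11891 normalized counts in RCS libraries, against 8165, 6625 and 5283 in rib libraries. The lowest RCS library lay above the highest rib library, and the mean of the RCS sums was 2.03 times that of the rib sums. As a share of all normalized counts, the sums were 0.322%, 0.323% and 0.28% of the RCS libraries and 0.144%, 0.121% and 0.0947% of the rib libraries, a ratio of 2.57. The ratio of shares is the larger because the RCS libraries had smaller totals after the authors' normalization. Scaling decides part of such values, so the medians were also set beside those of all genes under other scalings. The all-gene median moved by 0.47 with quantile normalization, by 0.33 with scaling to equal totals and by 0.18 with cyclic loess. The median of the replication-dependent entries was 1.24 against 0.32 for all genes with quantile normalization, 1.30 against 0.18 with equal totals, and 0.82 against 0.03 with cyclic loess. With quantile normalization, 38 entries were higher and 4 lower, against 47.6% and 29.3% of all genes.

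**Figure D1:**
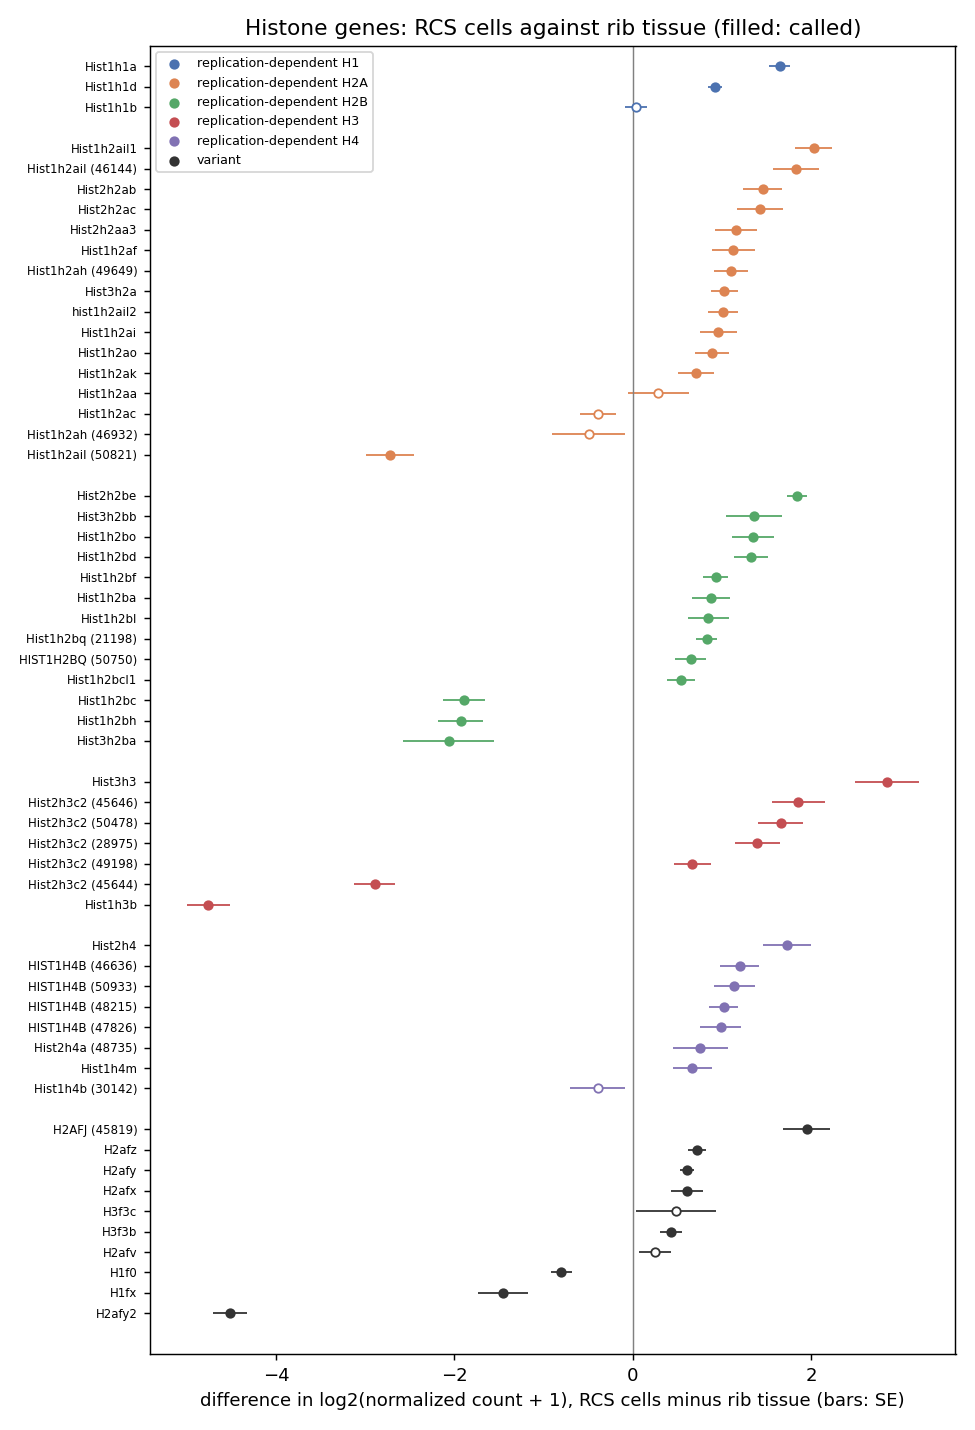
Difference of each of the 57 tested histone entries, RCS cells minus rib tissue, in log2(normalized count + 1). Each row is 1 entry, with the last digits of its identifier where entries share a symbol. Filled points were called, open points were not, and bars show the SE from limma over 3 libraries a group. Most entries lie right of 0 in each family, and Hist1h3b at -4.76 and H2afy2 at -4.51 lie farthest to the left.

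Several limits apply to single entries. The 51 entries carry 36 distinct symbols, and 6 symbols cover 21 entries, among them 5 each of Hist1h4b, Hist2h3c2 and Hist2h4a. Coding sequences of cluster histones are nearly the same from copy to copy, and how the authors treated reads that match several copies is not given in the sources used here. A difference of 1 entry is therefore uncertain, since reads could have been shared out among copies. Among the 30 entries with a symbol of their own, 23 were higher, 4 lower and 3 not called, with a median of 0.95. Among the 17 tested entries with a shared symbol, 13 were higher and 2 lower, with a median of 0.99. Both sets can be read against 32.9% higher and 43.6% lower over all genes tested. When the entries of each family were added up before the test, all 5 family sums were higher in RCS cells and 0 were lower.

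The linker histones H1 of the clusters had 3 entries, each with its own symbol. Hist1h1a, which RefSeq names H1f1, stood at 914, 826 and 777 normalized counts in RCS libraries, against 302, 272 and 230 in rib libraries. All RCS libraries lay above all rib libraries, and Hist1h1a was 3.13-fold higher in RCS cells (difference 1.65, SE 0.12, limma adjusted p = 3.94e-06). Hist1h1d, which RefSeq names H1f4, stood at 1400, 1325 and 1375 in RCS libraries, against 786, 661 and 727 in rib libraries. It did not overlap between the groups either and was 1.89-fold higher (difference 0.92, SE 0.08, limma adjusted p = 1.97e-05). Hist1h1b, which RefSeq names H1f5, stood at 398, 363 and 354 in RCS libraries and at 431, 349 and 315 in rib libraries. Its groups overlapped, and its difference of 0.04 (SE 0.12) was not called. The linker histones thus differed among themselves, although their sum was 1.9 times as high in RCS cells.

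The promoters of several members are printed here because the members they belong to went in different directions. RefSeq promoter sequences of the rat build GRCr8 matched 35 of the 65 members, 28 by Entrez identifier and 7 by protein accession. A protein accession need not single out the right copy among near-identical genes. By accession, Hist1h2bl and Hist1h2ai were matched to RefSeq genes of other names, Hist1h2bg and Hist1h2an. Each sequence runs over the 250 bases before the gene's start, written 5′ to 3′ on the gene's strand. Capitals mark matches on either strand to 3 motifs known from histone promoters. They are the CCAAT box (letters CCAAT), the TATA box (letters TATAAA) and the octamer (letters ATTTGCAT). Where matches touch or overlap, they appear as 1 run of capitals. Hist1h1a, chr17:41794869-41795118, minus strand, was higher in RCS cells. Hist2h2be, chr2:186469202-186469451, plus strand, was higher and shares most of these bases with the neighbouring Hist2h2ac, which was higher too. Hist1h2bc, chr17:47181941-47182190, minus strand, was lower and shares nearly all of these bases with the neighbouring Hist1h2ah entry ENSRNOG00000046932, which was not called. H2afy2, chr20:30270653-30270902, minus strand, is the variant with the lowest difference, and none of the 3 motifs was found in its window.
Hist1h1a: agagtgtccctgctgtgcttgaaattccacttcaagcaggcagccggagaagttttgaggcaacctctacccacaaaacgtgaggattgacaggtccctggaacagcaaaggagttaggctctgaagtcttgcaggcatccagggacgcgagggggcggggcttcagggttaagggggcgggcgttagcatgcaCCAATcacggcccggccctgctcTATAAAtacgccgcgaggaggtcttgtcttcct
Hist2h2be: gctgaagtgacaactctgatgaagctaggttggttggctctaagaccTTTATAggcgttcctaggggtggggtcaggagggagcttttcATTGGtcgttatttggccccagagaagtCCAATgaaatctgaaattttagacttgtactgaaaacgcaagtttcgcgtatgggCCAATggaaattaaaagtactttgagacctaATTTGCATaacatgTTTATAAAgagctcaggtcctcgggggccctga
Hist1h2bc: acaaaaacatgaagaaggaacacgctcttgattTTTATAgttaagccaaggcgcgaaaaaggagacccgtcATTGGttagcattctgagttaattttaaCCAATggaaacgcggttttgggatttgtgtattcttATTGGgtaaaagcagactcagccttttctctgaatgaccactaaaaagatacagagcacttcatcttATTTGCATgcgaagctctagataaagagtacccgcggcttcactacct
H2afy2: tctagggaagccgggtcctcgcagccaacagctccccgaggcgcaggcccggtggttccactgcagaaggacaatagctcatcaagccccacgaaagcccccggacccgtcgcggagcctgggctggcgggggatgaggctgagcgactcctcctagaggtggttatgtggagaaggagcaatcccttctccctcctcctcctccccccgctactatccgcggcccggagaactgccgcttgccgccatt

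The letters CCAAT stood in 24 of the 25 matched replication-dependent promoters (96%), in 5 of 10 variant promoters (50%) and in 34.3% of all 27457 RefSeq rat promoters of the same length. TATAAA stood in 16 of 25 replication-dependent promoters (64%), in 1 of 10 variant promoters and in 13.1% of all promoters. The octamer letters stood in 12 of 25 replication-dependent promoters (48%), in 0 of 10 variant promoters and in 1.5% of all promoters. By family, the octamer was found in 6 of 8 H2A and in 6 of 11 H2B promoters and in none of the 3 H1, 2 H3 and 1 H4 promoters matched. Genes that start back to back share most of their window, so these promoters are not independent of each other. The bases G and C made up 33.6% to 57.2% of the replication-dependent windows and 46.8% to 74.8% of the variant windows. How far this base composition shaped the motif counts was not tested. A match describes letters only, on either strand and anywhere in the window, so TATAAA need not lie where that gene's own TATA box would. The window of the lower Hist1h2bc held the letters of all 3 motifs, as did that of the higher Hist2h2be. In Hist1h2bc, the only TATAAA match lay on the other strand, far from its own start and near that of its back-to-back partner Hist1h2ah. In Hist2h2be, a TATAAA match lay close to its own start. The lower Hist3h2ba also had a TATAAA match close to its own start. The higher Hist1h2bo, matched by protein accession, had its only TATAAA match on the other strand and far from its start. Whether a motif or its place bears on the differences was not tested.

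Of the H2A entries, 12 of 16 were higher and 1 lower, against 32.9% and 43.6% of all genes. The other 3 were not called, and the median was 1.02. The entry with the largest difference was Hist1h2ail1, at 608, 548 and 458 normalized counts in RCS libraries, against 174, 133 and 96 in rib libraries. Its groups did not overlap, and it was 4.08-fold higher in RCS cells (difference 2.03, SE 0.21, limma adjusted p = 3.64e-05). Hist1h2ail1 and both entries of Hist1h2ail carry H2A symbols but are described in the table as histone H3.1, so their family is uncertain. The Hist1h2ail entry ENSRNOG00000046144 stood at 674, 604 and 386 in RCS libraries, against 204, 152 and 111 in rib libraries, a difference of 1.83 (SE 0.26). The Hist1h2ail entry ENSRNOG00000050821 stood at 10.2, 8.16 and 10.5 in RCS libraries, against 82.3, 81.5 and 48.4 in rib libraries, a difference of -2.72 (SE 0.27). Entries under 1 symbol thus went in opposite directions, with limma adjusted p = 0.000267 and 3.07e-05. With family taken from the description, 10 of 13 H2A entries were higher and 0 lower, and 7 of 10 H3 entries were higher and 3 lower.

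The other higher H2A entries had differences of 0.71 for Hist1h2ak to 1.46 for Hist2h2ab. Hist2h2ac stood at 273, 295 and 196 normalized counts in RCS libraries, against 136, 85.8 and 68.4 in rib libraries. Hist3h2a stood at 409, 376 and 339 in RCS libraries, against 210, 199 and 144 in rib libraries. Neither overlapped between the groups. The 3 H2A entries that were not called were Hist1h2aa, Hist1h2ac and the Hist1h2ah entry ENSRNOG00000046932, and each of them overlapped between the groups. Hist1h2aa, a testis-type H2A, stood at 46.9, 45.8 and 32.1 in RCS libraries and at 53.9, 33.4 and 20.7 in rib libraries.

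Of the H2B entries, 10 of 13 were higher and 3 lower, against 32.9% and 43.6% of all genes, with a median of 0.85. Hist2h2be took the most reads among the H2B entries, length not considered, at 1754, 1660 and 1565 in RCS libraries, against 502, 505 and 389 in rib libraries. The groups lay far apart, and Hist2h2be was 3.58-fold higher in RCS cells (difference 1.84, SE 0.11, limma adjusted p = 1.99e-06). The Hist1h2bq entry ENSRNOG00000021198 stood at 762, 766 and 687 in RCS libraries, against 480, 424 and 351 in rib libraries, a difference of 0.83 (SE 0.12, limma adjusted p = 0.000281). Hist1h2ba, a testis-type H2B, stood at 59.9, 58.6 and 62.7 in RCS libraries, against 35, 39.3 and 24.8 in rib libraries, without overlap. The other higher H2B entries differed by 0.54 for Hist1h2bcl1 to 1.36 for Hist3h2bb.

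Hist1h2bc stood at 29.8, 29.8 and 49.6 normalized counts in RCS libraries, against 160, 136 and 111 in rib libraries. Hist1h2bh stood at 8.02, 9.2 and 8.14 in RCS libraries, against 42, 37 and 27.5 in rib libraries. Hist3h2ba stood at 1.63, 1.04 and 2.48 in RCS libraries, against 13.3, 18 and 4 in rib libraries. These were the 3 lower H2B entries, and in each the highest RCS library lay below the lowest rib library. Their differences were -1.89 (SE 0.24), -1.93 (SE 0.25) and -2.06 (SE 0.51), with limma adjusted p = 0.000128, 0.000151 and 0.00604. The last lies near the detection limit in RCS cells. With quantile normalization, the difference of Hist1h2bh was 0.05 and that of Hist3h2ba 0.52, and both calls were lost there and with cyclic loess. The call of Hist1h2bc held under every alternative run, with differences of -2.13 to -1.18.

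Hist1h2bc and Hist1h2bh lie near each other in the genome. In the RefSeq gene order of GRCr8, H2bc9, Hist1h2ac, Hist1h4b, H2bc12 and H2ac12 follow each other with no other gene between them, and the table's entries for H2bc9, H2bc12 and H2ac12 are Hist1h2bh, Hist1h2bc and the Hist1h2ah entry ENSRNOG00000046932. Of these 5 neighbours, 0 were higher in RCS cells, 2 were lower and 3 were not called. Over all genes tested, 32.9% were called higher and 43.6% lower. Hist1h2ac stood at 44.1, 53.4 and 47.4 normalized counts in RCS libraries and at 76.9, 67.4 and 49.6 in rib libraries, a difference of -0.39 (SE 0.20). The Hist1h4b entry ENSRNOG00000030142 stood at 160, 144 and 77.3 in RCS libraries and at 210, 172 and 112 in rib libraries, a difference of -0.39 (SE 0.31). The Hist1h2ah entry stood at 47.8, 52.3 and 19.8 in RCS libraries and at 79.6, 46.9 and 37.6 in rib libraries, a difference of -0.49 (SE 0.41). Each of the 3 overlapped between the groups. This run of neighbours was picked after its values were seen and was given no test. The entries Hist1h2ac and Hist1h4b were matched by symbol alone, with capitals as written. Further entries written HIST1H4B, which share the latter symbol apart from capitals, were all higher, by 0.99 to 1.20, and were not counted among the neighbours. The highest difference over the alternatives run was 0.05 for Hist1h2bh, 0.67 for Hist1h2ac, -0.05 for Hist1h4b, -1.18 for Hist1h2bc and 0.80 for Hist1h2ah, so the direction of 3 of the 5 depends on the processing.

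Pairs of histone genes that start back to back were also read side by side. Hist2h2ac and Hist2h2be, with 226 bases between their starts, were both higher in RCS cells, and so were Hist3h2bb and Hist3h2a, with 218 bases between them. Hist1h2ba was higher while its partner Hist1h2aa, 240 bases away, was not called. Hist1h2bc was lower while its partner Hist1h2ah, 253 bases away, was not called. The difference between partners was not tested.

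Of the H3 entries, 5 of 7 were higher and 2 lower, against 32.9% and 43.6% of all genes, with a median of 1.40. The Hist2h3c2 entry ENSRNOG00000050478 took the most reads, at 1093, 1069 and 656 in RCS libraries, against 399, 264 and 229 in rib libraries, a difference of 1.66 (SE 0.25, limma adjusted p = 0.000366). The Hist2h3c2 entry ENSRNOG00000045646 stood at 395, 432 and 245 in RCS libraries, against 146, 80.7 and 72.3 in rib libraries, a difference of 1.86 (SE 0.30, limma adjusted p = 0.000519). In both, RCS replicate 3 was well below the other RCS libraries and still above every rib library. The Hist2h3c2 entry ENSRNOG00000045644 went the other way, at 20, 15.7 and 17.6 in RCS libraries, against 178, 140 and 104 in rib libraries, a difference of -2.89 (SE 0.23, limma adjusted p = 7.65e-06). Of the 5 entries with this symbol, 4 were higher and 1 was lower. The higher entry ENSRNOG00000049198, at a difference of 0.67, overlapped between the groups and lost its call under 6 of the alternatives, leaving out single libraries among them.

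Hist1h3b stood at 4.35, 5.36 and 4.96 normalized counts in RCS libraries, against 206, 155 and 125 in rib libraries. The groups were far apart, and its difference of -4.76 (SE 0.24, limma adjusted p = 6.65e-07) was the lowest of all histone entries. It held its call under every alternative run, at -4.99 to -3.50. Hist3h3, a testis-type H3, stood at 8.33, 8.72 and 7.33 in RCS libraries, against 0, 1.03 and 0 in rib libraries. RCS libraries were above rib libraries, with a difference of 2.85 (SE 0.36, limma adjusted p = 0.000128) that ran from 0.81 to 5.19 over the alternatives, and no fold is given at such counts. Of 10 germ cell markers, 4 were tested. In RCS cells 1 was higher, 1 was lower and 2 were not called, against 32.9% higher and 43.6% lower of all genes. Those not called were Sycp1 and Acrv1. Dazl, Prm1, Prm2 and Tnp1 were listed at 0 in all 6 libraries, and Ddx4 and Tnp2 in all RCS libraries. The meiosis gene Dmc1 was higher in RCS cells, at 41.5, 42.8 and 60.6 against 2.27, 5.89 and 14.9 in rib libraries, and the meiosis gene Sycp3 was lower, at 79.2, 85.3 and 96.4 against 138, 116 and 231 in rib libraries.

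Of the 12 H4 entries, 8 could be tested, of which 7 were higher and 0 lower, against 32.9% and 43.6% of all genes. The remaining 1 was not called, and the median was 1.0. Hist2h4 stood at 569, 614 and 415 normalized counts in RCS libraries, against 237, 149 and 111 in rib libraries. It was 3.32-fold higher in RCS cells without overlap (difference 1.73, SE 0.27, limma adjusted p = 0.000414). The HIST1H4B entry ENSRNOG00000050933 stood at 466, 475 and 379 in RCS libraries, against 275, 205 and 138 in rib libraries, a difference of 1.14 (SE 0.23, limma adjusted p = 0.00192). The other 3 entries written HIST1H4B differed by 0.99 to 1.20. Hist1h4m and the tested Hist2h4a entry had smaller differences, 0.67 and 0.76, and lost their calls under 6 and 8 of the alternatives, leaving out single libraries among them.

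Variant histone genes were called in both directions. Of the 14 entries, 10 were tested, and 5 were higher, 3 lower and 2 not called, against 32.9% of all genes called higher, 43.6% called lower and 76.5% called in either direction. The share of variants called was thus near that of all genes, and their median difference was 0.46, against -0.15 over all genes. Among the variants tested, 7 of 10 did not overlap between the groups, against 13268 of the 16809 genes tested. The variant sum was 3185, 3062 and 2586 normalized counts in RCS libraries and 2963, 2506 and 2706 in rib libraries. The groups overlapped, and the mean of the RCS sums was 1.08 times that of the rib sums, or 1.37 times as a share of the library. The replication-dependent sum was 4.57, 4.67 and 4.6 times the variant sum in the RCS libraries, against 2.76, 2.64 and 1.95 times in the rib libraries. This ratio does not depend on the factor used to scale a library, and every RCS library lay above every rib library. With 3 libraries against 3, an exact permutation test cannot reach a two-sided p under 0.10, so none is given.

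**Figure D2:**
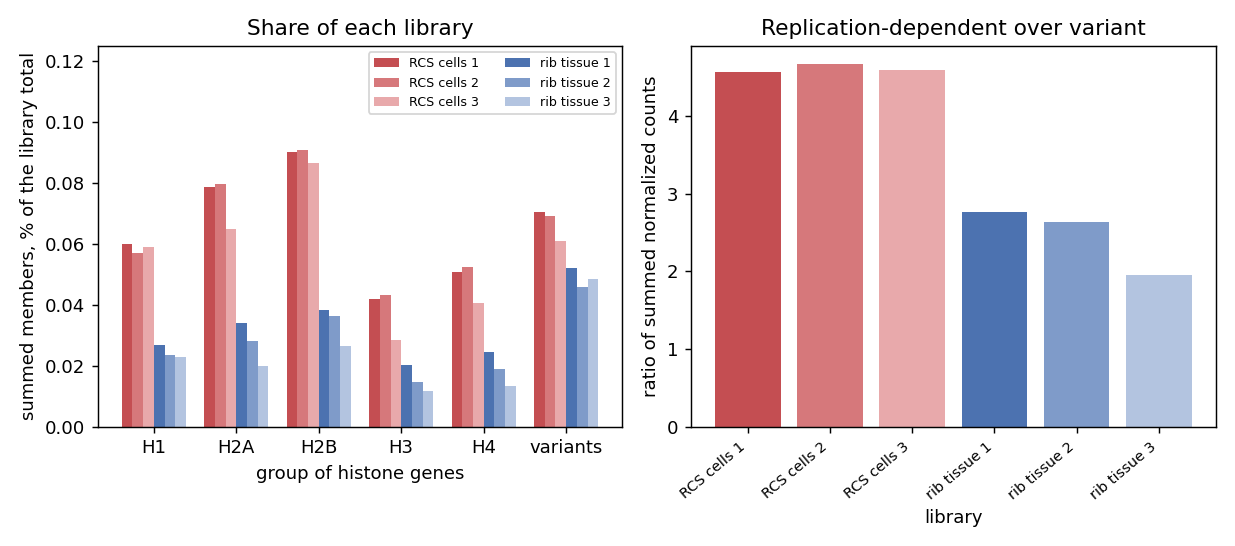
Left, summed normalized counts of the replication-dependent entries of each family and of all variants, as % of each library's total, with 1 bar for each of the 6 libraries. Right, the replication-dependent sum divided by the variant sum in each library. The RCS libraries lie at 4.57 to 4.67 and the rib libraries at 1.95 to 2.76.

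The macroH2A variants, which carry a large extra domain and are found on silent chromatin such as the inactive X chromosome, went in opposite directions. H2afy2, the gene of macroH2A2, stood at 6.97, 7.23 and 5.71 normalized counts in RCS libraries, against 169, 180 and 166 in rib libraries. Libraries of a group lay close together and the groups far apart, with a difference of -4.51 (SE 0.19, limma adjusted p = 2.41e-07). H2afy, the gene of macroH2A1, stood at 487, 506 and 471 in RCS libraries, against 342, 310 and 304 in rib libraries. It was 1.53-fold higher in RCS cells (difference 0.61, SE 0.08, limma adjusted p = 0.000168). Both calls held under every alternative run, and H2afy2 ranged from -4.68 to -3.36. H2afy2 has a symbol of its own in the table and is not a cluster gene.

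The variant linker histones were lower in RCS cells. H1f0, the gene of H1.0, a linker histone known to build up in cells that stop dividing, stood at 539, 483 and 440 normalized counts in RCS libraries, against 852, 738 and 964 in rib libraries. No library overlapped, and its difference was -0.80 (SE 0.12, limma adjusted p = 0.000334), with -0.90 to -0.46 over the alternatives. H1fx, the gene of H1.X, stood at 21.1, 20.9 and 14 in RCS libraries, against 71.9, 47.8 and 40.9 in rib libraries, a difference of -1.45 (SE 0.28, limma adjusted p = 0.00153). Its direction rests on the scaling, with a difference of 0.07 after quantile normalization and a call lost at -0.69 with cyclic loess. Against the cluster H1 genes, of which 2 of 3 were higher, both expressed variant H1 genes were thus lower with the authors' scaling.

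The H2A.Z genes encode a variant placed around active promoters. H2afz, the gene of H2A.Z.1, stood at 354, 332 and 322 normalized counts in RCS libraries, against 225, 207 and 181 in rib libraries. It was 1.65-fold higher in RCS cells without overlap (difference 0.72, SE 0.10, limma adjusted p = 0.000266). H2afv, the gene of H2A.Z.2, stood at 82.3, 90.3 and 70.1 in RCS libraries and at 82.7, 62 and 60.1 in rib libraries. Its groups overlapped and its difference of 0.25, with a 95% interval of -0.16 to 0.66, was not called, although quantile normalization and scaling to equal totals gave called differences of 1.12 and 0.59.

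H2afx, the gene of H2A.X, which is phosphorylated around DNA breaks, stood at 496, 592 and 423 normalized counts in RCS libraries and at 424, 297 and 274 in rib libraries. The lowest RCS library lay just under the highest rib library. Its difference was 0.61 (SE 0.18, limma adjusted p = 0.0142), and the call was lost without RCS replicate 2, without rib replicate 2 and without rib replicate 3, at limma adjusted p = 0.0553, 0.0754 and 0.0747. It was also lost without the filter on low values, at adjusted p = 0.0844 by limma. H2AFJ, an H2A variant gene, stood at 52.2, 57.7 and 38.8 in RCS libraries, against 15.6, 10.1 and 10.6 in rib libraries, 3.88-fold higher (difference 1.95, SE 0.26, limma adjusted p = 0.000193). A second entry, written H2afj, was listed at 0 in all 6 libraries, so the counts listed for this symbol all lay under H2AFJ. From which of the entries those reads came remains uncertain. H2AFJ was the 1 variant with at least a 2-fold higher value in RCS cells.

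Histone H3.3 replaces H3 outside replication. H3f3b, which encodes it, stood at 1053, 879 and 765 normalized counts in RCS libraries, against 698, 617 and 669 in rib libraries. The groups did not overlap, and the difference was 0.43 (SE 0.12, limma adjusted p = 0.0106), with the call lost without rib replicate 2 at adjusted p = 0.0541 and without the filter on low values at adjusted p = 0.0539. H3f3c, described as an H3.3 gene as well, stood at 93.4, 93 and 35.3 in RCS libraries and at 83.5, 36 and 36.4 in rib libraries. Each group held both high and low libraries, and its difference of 0.49, with a 95% interval of -0.55 to 1.53, was not called, although quantile normalization gave a called difference of 1.61. Without rib replicate 2, the number of variants called higher was 3 in place of 5, since H2afx and H3f3b dropped out. The oocyte linker histone H1foo, the spermatid linker histone H1fnt and the testis H2A variant H2afb3 were listed at 0 in all 6 libraries, meaning a normalized count of at most 1.

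**Figure D3:**
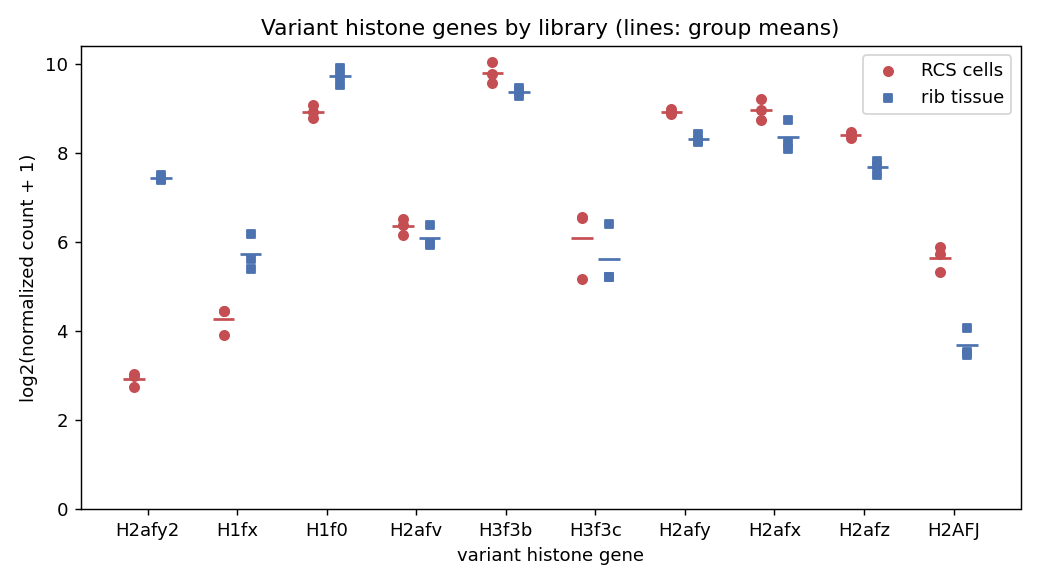
The 10 tested variant histone genes by library, as log2(normalized count + 1), with RCS cells as circles left of rib tissue as squares and lines at the group means (3 libraries each). H2afy2 shows the widest gap, H1f0 and H1fx also lie lower in RCS cells, and H2afv, H3f3c and H2afx overlap.

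Genes that make histone mRNA were mostly higher in RCS cells. Of 17 genes for the transcription and 3′ end processing of histone mRNA, 13 were higher, 1 was lower and 3 were not called, with a median of 0.73. Over all genes tested, 32.9% were higher and 43.6% lower. Slbp, which encodes the protein that binds the stem-loop, stood at 493, 478 and 487 normalized counts in RCS libraries, against 228, 255 and 239 in rib libraries, a difference of 1.01 (SE 0.08, limma adjusted p = 6.97e-06). Eri1, an exonuclease that trims histone mRNA ends, stood at 525, 502 and 546 in RCS libraries, against 129, 164 and 147 in rib libraries, a difference of 1.84. Upf1, a helicase that takes part in histone mRNA decay, was higher by 0.85, and Casp8ap2, a partner in histone gene transcription, by 0.89. None of these 4 overlapped between the groups, as held for 13268 of the 16809 genes tested. Npat, the coactivator of histone gene transcription, stood at 637, 636 and 698 in RCS libraries and at 564, 725 and 751 in rib libraries, and its difference of -0.04 (SE 0.12) was not called. Cramp1l was the 1 lower gene, at 184, 168 and 179 in RCS libraries, against 412, 348 and 351 in rib libraries, a difference of -1.06.

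Of 17 genes for the supply of new histones to replicating DNA, 13 were higher, 1 was lower and 3 were not called, with a median of 0.78, against 32.9% of all genes called higher and 43.6% called lower. Asf1b, a chaperone of newly made H3 and H4, had the largest difference, at 557, 553 and 577 normalized counts in RCS libraries, against 98.6, 125 and 104 in rib libraries (difference 2.36, SE 0.11, limma adjusted p = 3.58e-07). Its relative Asf1a stood at 243, 265 and 306 in RCS libraries and at 209, 255 and 245 in rib libraries, and its difference of 0.20 was not called. Chaf1a, the large subunit of chromatin assembly factor 1, was higher by 1.99. Among the most abundant members, Nap1l1, a chaperone of H2A and H2B, was higher by 0.82 and Ssrp1, a subunit of the chaperone FACT, by 0.76. The importin Ipo4, which carries H3 and H4 into the nucleus, was lower at -0.49, a call lost at -0.15 with scaling to equal totals.

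Of the 20 genes tested that place variants into chromatin, a list in which Oip5 was not analysed, 11 were higher, 6 were lower and 3 were not called, with a median of 0.55, against the same 32.9% called higher and 43.6% called lower over all genes. Cenpa, Hjurp and Mis18a, genes of the centromere variant, were higher. Cenpa, the centromeric H3 variant itself, stood at 170, 171 and 189 normalized counts in RCS libraries, against 65.4, 51 and 40.2 in rib libraries (difference 1.76, SE 0.18, limma adjusted p = 4.01e-05), and its chaperone Hjurp was higher by 1.40. Mis18a, which prepares centromeres for Cenpa, had the largest difference, 2.78 (SE 0.20), at 188, 193 and 180 in RCS libraries, against 35.4, 21.8 and 23.6 in rib libraries. Srcap, the motor of a complex that exchanges H2A for H2A.Z, was lower, at 158, 122 and 112 in RCS libraries, against 513, 430 and 467 in rib libraries (difference -1.85, SE 0.14, limma adjusted p = 6.02e-06). Ep400, the motor of a related complex, was lower at -0.89, while Ruvbl1 and Ruvbl2, subunits of both complexes, were higher by 1.46 and 1.17. Among genes for H3.3, Hira was higher by 0.85, with groups that overlapped, Daxx by 0.40 and Dek by 0.93, while Ubn1, Ubn2, Cabin1 and Atrx were lower at -0.45, -1.62, -0.56 and -0.99.

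S phase genes were higher almost throughout. Of 26, 25 were higher and 1 was lower, with a median of 1.38, against 32.9% of all genes called higher and 43.6% called lower. Cdc6, which loads the replicative helicase, stood at 602, 561 and 519 normalized counts in RCS libraries, against 94, 100 and 66.4 in rib libraries, the largest difference of the list at 2.70. Mcm2, a subunit of that helicase, was higher by 1.24, and Mki67, a marker of cycling cells, by 0.52. Gins2, a subunit of the GINS replication complex, was the 1 lower gene at -0.39, a call lost at -0.05 with scaling to equal totals. The share of cycling cells in each group was not measured, and its part in the histone differences was not tested.

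**Figure D4:**
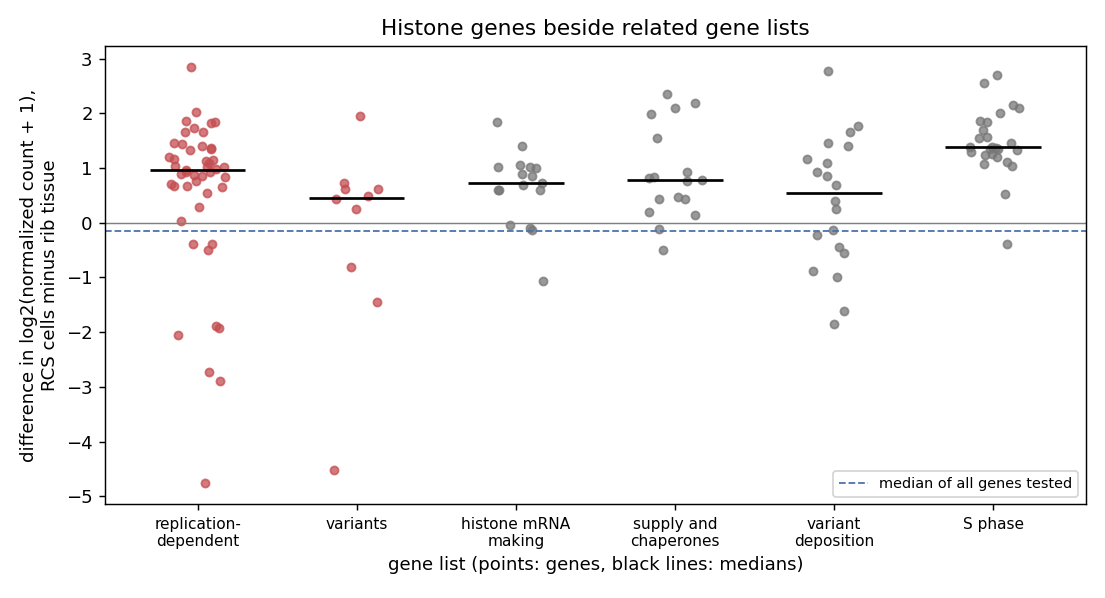
Differences in log2(normalized count + 1), RCS cells minus rib tissue, of the replication-dependent and variant histone entries and of 4 lists of related genes. Points are genes, black lines are medians, and the dashed line marks the median of all genes tested, -0.15. The medians are 0.96 for replication-dependent histones, 0.46 for variants, 0.73, 0.78 and 0.55 for the related lists and 1.38 for S phase genes.

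Replication-dependent entries also mostly moved together among libraries of the same group. Near-identical copies may share reads, so the entries are not independent here. Among rib libraries, replicate 1 was the highest in 39 of the 47 tested entries (83%), against 34.4% of all genes, and replicate 3 was the lowest in 44 (93.6%), against 38.3% of all genes. Among RCS libraries, replicate 3 was the lowest in 35 of 47 (74.5%), against 32.8% of all genes, and in 10 of 10 variant entries. The H2B entries did not share this RCS order, with replicate 3 the highest in 6 of 13 and the lowest in 6. RCS replicate 3 was also the lowest RCS library in 20 of 26 S phase genes, and rib replicate 3 the lowest rib library in 19 of 26. The mean level of the muscle markers was 11.69, 11.45 and 10.69 on the log2 scale in rib replicates 1 to 3, that of the fibroblast and bone markers 12.02, 11.46 and 10.57, and that of the blood markers 8.15, 7.97 and 7.0. Their part in the order of the rib libraries was not tested. Over fits that left out 1 library each, 33 to 36 replication-dependent entries were higher in RCS cells and 6 to 7 were lower.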

How the data were processed

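The authors deposited log2 values for 6 libraries in 1 table. Raised back to the linear scale, the commonest low values of a library were multiples of a single step. Values were therefore taken as reads over 1 factor per library, not per gene length, although the table is named after RPKM. Of all values above 0, only 8.83% to 13.8% by library lay within 0.01 of a whole multiple of the step. Of the histone values, 0% to 7.02% did. The unit and the read depths are thus inferred and remain uncertain. Values of 1 or less were listed as 0. The submitters' processing notes name CASAVA 1.8, DESeq and rn5. The aligner, counting rule and use of strand are not stated in the sources available here.

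The test was limma 3.58.1 in R 4.3.3 (intensity trend, two-sided, Benjamini-Hochberg) on log2(normalized count + 1) of 16809 genes with at least 1 normalized count in at least 3 libraries, and the script was checked on simulated data. Depth was estimated as the summed counts over the step. No count model was used. Named by rule were all variants, the 2 most abundant entries of each cluster family, the 3 largest called differences in each direction, and the 2 most abundant and the most changed genes of each related list. Other named genes, the neighbours and the back-to-back pairs were chosen after their values were seen. The members and lists were chosen with earlier results of these data known. No pairing of the libraries by replicate number was seen. Alternatives were other scalings, pseudocounts of 0.1 and 10, other filters, array weights, a replicate block, leaving out each library, summed families, and single-symbol entries only.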

Additional observations from a re-analysis of the deposited data

How the results depend on the processing

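Under every alternative run, more replication-dependent entries were called higher than lower in RCS cells, and no family median changed sign with scaling. With quantile normalization 8000 of all genes were higher and 4924 lower, and with scaling to equal totals 7366 were higher and 6118 lower, against 5536 and 7324 with the authors' scaling. Of 655 values of 40 named genes under an alternative, 642 kept direction and side of the threshold, 9 lost and 3 gained the call, and 1 turned round, which was H1fx at 0.07 with quantile normalization. The cause was not tested.

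The number of variants called higher was 3 without the filter on low values, against 5, and the cause was not tested. Summed by family, 5 replication-dependent sums were higher and 0 lower, because single entries are merged. Without entries that share a symbol, a setting chosen after seeing the data, 23 entries were higher because fewer were tested. Leaving out 1 library each gave 33 to 36 replication-dependent entries higher and 6 to 7 lower, 3 to 5 variants higher and 3 lower, and 4905 to 5540 of all genes higher and 6856 to 7306 lower.

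Libraries with the same replicate number did not deviate together (r = 0.06, -0.08 and 0.05), while other pairs gave r of -0.19 to 0.16. No pairing by number was seen, although such values cannot exclude a weak shared effect. With a replicate block, 36 replication-dependent entries were higher and 7 lower, 5 variants were higher and 3 lower, and 5536 of all genes were higher and 7340 lower. Depth limits entries listed at 0, which allow up to 1 normalized count.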

Other observations

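Some entries described as histones fall outside the symbol rule. RGD1564548, described as a histone H3, stood at 26.6, 25.5 and 14.8 normalized counts in RCS libraries and at 24.4, 19.3 and 12.9 in rib libraries, and its difference of 0.23 (SE 0.33, limma adjusted p = 0.545) was not called. A further 4 such entries, H2bfm among them, were listed at 0 in all 6 libraries.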
